A study of Mus musculus with 2 samples.

Results

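Hemoglobin and the proteins that build a red blood cell are encoded by a small set of genes whose activity rises as progenitors commit to the erythroid lineage. The Myb peaks at 9 of these genes are described here. The genes are the adult β-globin genes Hbb-bs and Hbb-bt, the adult α-globin genes Hba-a1 and Hba-a2, the erythroid transcription factor genes Klf1 and Nfe2, and Alas2, Tfrc and Slc4a1, which serve heme synthesis, iron uptake and the red cell membrane. A peak was assigned to a gene when its summit lay in the gene or within 60 kb of it, a span that also holds the distal control regions of the globin genes. By this rule 68 of 25793 Myb peaks were found around 9 of 21938 protein-coding genes. The genes form 7 loci, since the adult β-globin genes share the Hbb locus and the adult α-globin genes share the Hba locus. The globin loci held 16 of the 68 peaks and the other 5 red cell loci held 52.

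The assay was ChIP-Seq for Myb in Lin– bone marrow of WT mice. Lin– cells are the fraction from which maturing blood cells, late red cell precursors among them, have been depleted. There was 1 library made with an antibody against Myb and 1 library made with rabbit normal IgG from the same kind of cells. The labels give the genotype as WT and name no treatment. The study's methods use WT for Ep300 fl/fl mice given poly(I:C), and whether these cells came from such mice is not stated in the labels. The IgG library entered the peak calls as the background and has no peak list of its own here. With no replicate of either library, no test between groups was made. Every interval below covers counting error only, except that of a median, which covers the spread between peaks. Intervals over several peaks take them as independent. Myb reads are given before the peak caller scaled them by a fitted 0.769, and the IgG background as the caller used it. Reads over background therefore do not equal the fold enrichment. A peak list holds no RNA level, so the identity of the cells could be checked only by promoter peaks, meaning summits within 3 kb of an annotated start site. Of 4 progenitor marker genes, Kit, Flt3 and Gata2 had a promoter peak, and Cd34 had none. The mature-cell marker genes Cd3e, Cd79a, Ly6g and Itgam had none.

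Myb is a DNA-binding transcription factor that keeps hematopoietic progenitors proliferating, and its level falls as red cells mature. The β-globin genes are controlled by a locus control region, a group of enhancers upstream of the embryonic gene Hbb-y. The α-globin enhancers lie upstream of the embryonic gene Hba-x, most of them inside introns of the neighboring housekeeping gene Nprl3. In erythroid cells both regions are bound by GATA1, KLF1 and the NFE2 complex.

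The summits that carry the description below are shown first, as 101 bases of the forward strand of GRCm38 (mm10) centered on the summit. Capitals mark matches on either strand to the Myb motif (CAACGG or CAACTG or TAACGG or TAACTG), the GATA motif (AGATAA or AGATAG or TGATAA or TGATAG), the KLF motif (CCNCNCCC) and the NFE2 motif (TGAGTCA, which AP-1 factors share). The lines below give the 2 Hbb peaks that held a Myb motif and the 2 strongest Hba peaks.
Hbb, 17568 bp upstream of Hbb-y, chr7:103870734-103870834: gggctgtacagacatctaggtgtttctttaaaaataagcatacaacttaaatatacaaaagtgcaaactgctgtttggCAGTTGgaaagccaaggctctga
Hbb, 6321 bp upstream of Hbb-y, chr7:103859487-103859587: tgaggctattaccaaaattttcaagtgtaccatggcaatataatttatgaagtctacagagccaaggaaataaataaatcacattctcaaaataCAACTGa
Hba, 30546 bp upstream of Hba-x, chr11:32245804-32245904: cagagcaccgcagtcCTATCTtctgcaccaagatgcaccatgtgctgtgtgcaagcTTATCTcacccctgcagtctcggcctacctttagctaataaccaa
Hba, 11171 bp upstream of Hba-x, chr11:32265179-32265279: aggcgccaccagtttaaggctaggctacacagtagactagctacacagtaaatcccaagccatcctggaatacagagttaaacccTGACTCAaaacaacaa

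For the other red cell genes, the strongest peak nearest to the gene's own start site is shown in the same way, with a further Nfe2 peak that held the Myb motif.
Klf1, 145 bp upstream, chr8:84901733-84901833: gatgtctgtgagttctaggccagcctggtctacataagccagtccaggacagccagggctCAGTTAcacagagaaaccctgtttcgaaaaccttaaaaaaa
Nfe2, 191 bp upstream, chr15:103258544-103258644: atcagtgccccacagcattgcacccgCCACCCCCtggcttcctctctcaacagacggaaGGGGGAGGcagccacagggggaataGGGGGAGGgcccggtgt
Nfe2, 5559 bp downstream, chr15:103252794-103252894: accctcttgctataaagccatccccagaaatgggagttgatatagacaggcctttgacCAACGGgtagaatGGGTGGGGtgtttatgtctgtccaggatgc
Alas2, 2380 bp downstream, chrX:150549705-150549805: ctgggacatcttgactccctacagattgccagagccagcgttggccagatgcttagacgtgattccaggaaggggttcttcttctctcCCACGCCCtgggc
Tfrc, 5363 bp downstream, chr16:32614233-32614333: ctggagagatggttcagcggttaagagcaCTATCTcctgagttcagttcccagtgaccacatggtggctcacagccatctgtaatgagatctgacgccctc
Slc4a1, 2379 bp downstream, chr11:102363774-102363874: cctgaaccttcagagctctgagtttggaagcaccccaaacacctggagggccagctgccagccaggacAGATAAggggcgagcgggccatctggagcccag

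At the β-globin locus, Myb peaks lay upstream and downstream of the gene cluster, and no summit fell inside Hbb-bs or Hbb-bt. Of the 9 peaks, 6 lay upstream of Hbb-y, on the side of the locus control region, and 3 lay past the 3′ end of Hbb-bt. The strongest was 17568 bp upstream of Hbb-y. Its fold enrichment over IgG was 13.8, with 43 reads at the summit (95% exact Poisson interval, 31.1 to 57.9) over an IgG background of 1.46 reads. Its −log10 q-value was 29.0, and its Myb motif began 28 bp from the summit on the forward strand (the CAGTTG in capitals above). The nearest protein-coding start was that of the olfactory receptor gene Olfr66, 11457 bp away, so an assignment by nearest gene would not have given this peak to a globin gene.

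The next upstream peak, 24130 bp from Hbb-y, was enriched 6.97-fold with 21 reads (13 to 32.1) and held a GATA motif. Closer to Hbb-y, the peak at 6321 bp was enriched 4.83-fold with 16 reads (9.15 to 26), and its Myb motif lay at the edge of the window, 44 bp from the summit. The peak at 1655 bp was enriched 3.84-fold with 11 reads (5.49 to 19.7). It was the promoter peak of Hbb-y, which encodes an embryonic β-like chain. The remaining upstream peaks, at 7036 and 7791 bp, had enrichments of 2.94 and 2.75 and q-values above 0.05, which the deposited list retains. The read intervals of the 6321, 7036 and 7791 bp peaks overlapped, so their order cannot be read.

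On the other side of the cluster, past the 3′ end of Hbb-bt, 3 peaks lay within 4926 bp of the Hbb-bt start. The farthest was enriched 7.59-fold with 23 reads (14.6 to 34.5). The peak 1854 bp from the start was enriched 5.40-fold with 16 reads (9.15 to 26), and the one 2408 bp from it was enriched 2.75-fold with 13 reads and a q-value above 0.05. Thus Hbb-bt counted as a gene with a promoter peak by distance, although both peaks within 3 kb of its start lay beyond the end of this short gene. The nearest summit to Hbb-bs was 15583 bp from its closest annotated start.

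At the α-globin locus, all 7 peaks lay upstream of Hba-x, and 6 of them were inside Nprl3. No summit fell in an adult α-globin gene, and the closest to Hba-a1 and Hba-a2 were 14231 and 27209 bp away. The strongest, 30546 bp upstream of Hba-x in an Nprl3 intron, was enriched 11.4-fold with 43 reads (31.1 to 57.9) over an IgG background of 2 reads. It held GATA motifs, one of them beginning 6 bp from the summit, together with a RUNX motif (TGTGGT or TGCGGT). This summit had as many reads as the strongest Hbb summit, and the IgG background was lower at the Hbb summit.

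The second α-globin peak, 11171 bp upstream of Hba-x in another Nprl3 intron, was enriched 7.67-fold with 32 reads (21.9 to 45.2). It was the only one of the 68 peaks with an NFE2 motif, which began 35 bp from the summit. The peak between Nprl3 and Hba-x, 7120 bp upstream, was enriched 4.85-fold with 21 reads (13 to 32.1). The 4 other peaks, at 8863, 20020, 25517 and 28861 bp, were enriched between 2.75- and 4.44-fold with 13 to 16 reads. The one at 8863 bp sat on the Nprl3 start and had a q-value above 0.05. None of the 7 peaks held the Myb motif within 50 bp of its summit, and 4 held the shorter letters AACNG.

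**Figure D1:**
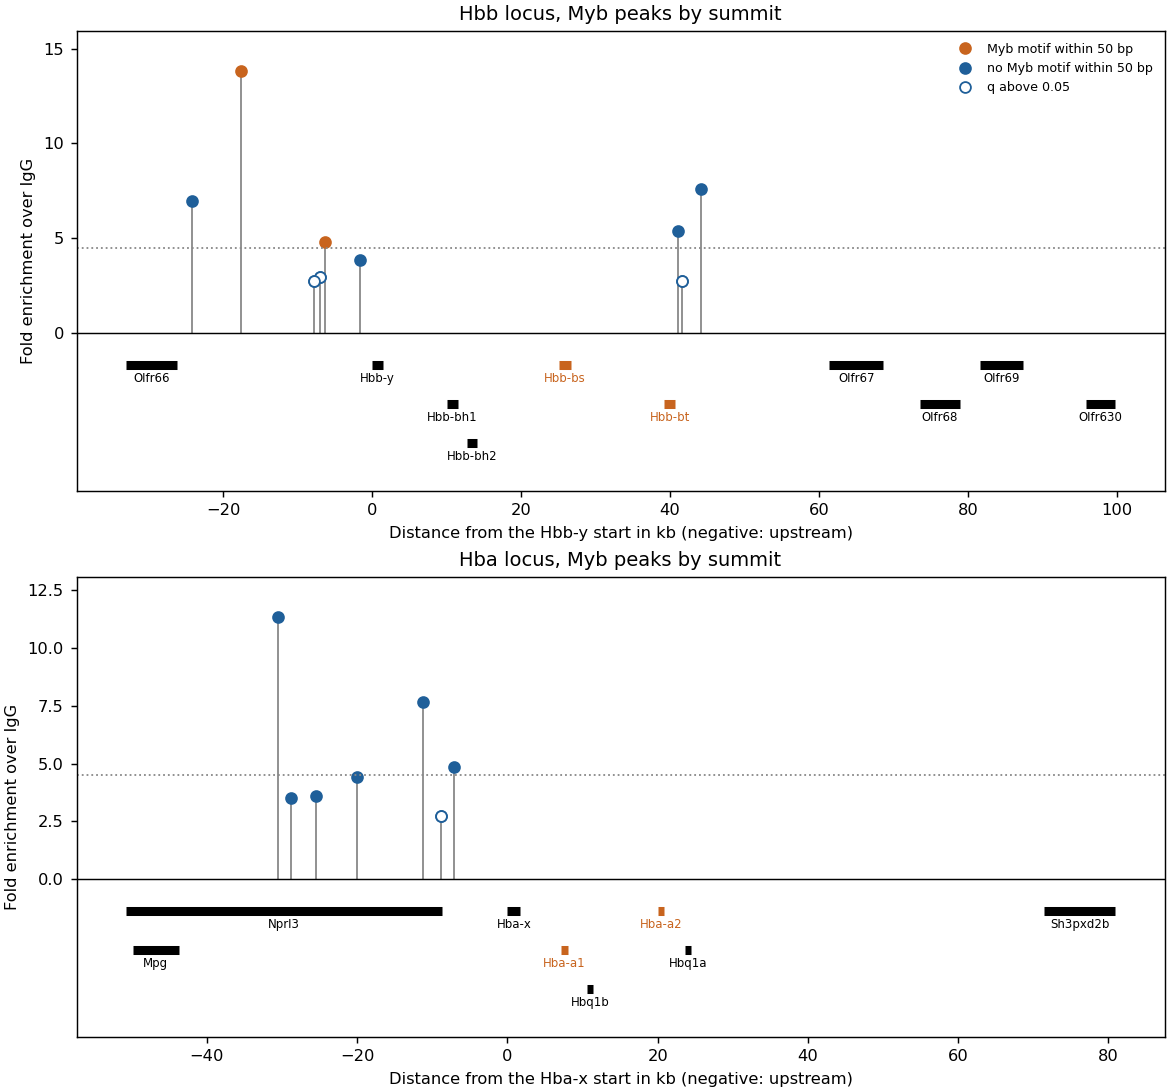
Fold enrichment over IgG of each Myb peak (vertical axis) by the distance of its summit from the Hbb-y start (top) or the Hba-x start (bottom), in kb. Each point is 1 peak, orange where the Myb motif was within 50 bp, blue where it was not and white where the q-value was above 0.05. The dotted line is the median of all 25793 peaks (4.51), black bars are coding genes and orange bars the adult globin genes. The strongest points lie upstream of both clusters, 17568 and 30546 bp from the embryonic genes, and no point lies over an adult globin gene.

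The lack of listed peaks at the adult globin genes was set beside the repetition of their sequence. A read is placed with confidence only if its sequence occurs once, and the authors discarded reads of low mapping quality. Of all 75-base words within 500 bp of the start, the length sequenced, 81.7% at Hba-a1 and 88.2% at Hba-a2 occurred more than once in the genome, against 12.3% at Hbb-bs and 22.1% at Hbb-bt. Over the gene and 1 kb on each side, the shares were 49.1%, 51.4%, 27% and 28.9%, in the same order. At Klf1, Nfe2, Alas2, Tfrc and Slc4a1 these shares were at most 1.36% over the gene. Reads that come from such words are among those of low mapping quality, and their part in the lack of a listed peak was not tested. Of the 68 peaks, 59 held no repeated word.

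The promoters of all 4 adult globin genes held a Myb motif in the RefSeq promoter table (GRCm38.p6), which gives 250 bases before and 50 after each start. The 30 bases around each match are shown on the gene's strand, 5′ to 3′, with the Myb motif and, in Hba-a1 and Hba-a2, a GATA motif that shares its last letters in capitals.
Hbb-bs, chr7:103827922-103827951, minus strand: gtgaggtaggatCAGTTGctcctcacattt
Hbb-bt, chr7:103813916-103813945, minus strand: gctgagcagggtCAGTTGcttcttacgttt
Hba-a1, chr11:32283473-32283502, plus strand: agtgtgtccgggCAACTGATAAggattccc
Hba-a2, chr11:32296290-32296319, plus strand: agtgtgtccgggCAACTGATAAggattccc
Klf1, chr8:84901781-84901810, plus strand: acagccagggctCAGTTAcacagagaaacc

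The match began 11 bp before the RefSeq start of Hbb-bs, 10 bp before that of Hbb-bt, 187 bp before that of Hba-a1 and 190 bp before that of Hba-a2. Peak distances were taken from GENCODE starts, which differ. At Hba-a1 the GENCODE start is base 32283511 and the RefSeq start base 32283672. In GENCODE, all 30 printed bases at Hbb-bt and 7 of the 30 at Hbb-bs are untranslated region of a transcript. The α-globin promoters were identical over 297 of 300 bases, which is why their sites are the same. At Klf1 the match in the promoter was the one in the Klf1 peak shown above. The table held promoters of 7 of the 9 genes, without Nfe2 and Slc4a1. The Myb motif was in 5 of the 7 genes and in 28.3% of all 32851 promoters. The GATA motif was in Alas2, Hba-a1, Hba-a2, Hbb-bs and Klf1 and in 29.8% of all promoters. The NFE2 motif was in Hbb-bs alone among the 7 and in 5.20% of all promoters. Of the 5 promoters with a Myb motif, only that of Klf1 lay under a listed peak.

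Klf1 and Nfe2 encode transcription factors that act on the globin control regions, and both had Myb peaks at their own promoters. Klf1 encodes the CACCC-box factor of the β-globin promoter. The peak 145 bp upstream of Klf1 was enriched 5.64-fold with 28 reads (18.6 to 40.5), and a Myb motif began 10 bp from the summit. All of the 101 bases at this summit were masked as repeats in the reference genome, as were those at the strongest Tfrc summit. A second peak lay in an exon, 1345 bp downstream, with an enrichment of 4.10 and 20 reads (12.2 to 30.9). The other 12 of the 14 peaks in the Klf1 window were nearest to other genes. They included the strongest peak of all 68, enriched 18.97-fold with 82 reads (65.2 to 102) and located 54149 bp upstream of Klf1. Its nearest coding start was that of Calr, which encodes the endoplasmic reticulum protein calreticulin, 845 bp away. Farsa, Dnase2a, Gcdh, Syce2 and Rnaseh2a were among the nearest genes of the rest.

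Nfe2, which encodes the large subunit of the NFE2 complex, had the densest Myb binding of the 7 loci. Of 20 peaks in its window, 9 were nearest to Nfe2 itself, and 6 lay inside the gene. The promoter peak, 191 bp upstream, was enriched 16.99-fold with 94 reads (76.0 to 115) and had the highest −log10 q-value of the 68 peaks, 63.3. It held 3 KLF motif matches and an ETS motif (CCGGAA or AGGAAG) but no Myb motif within 50 bp. The read intervals of this summit and of the Calr summit overlapped.

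Within Nfe2, the strongest peak lay 5559 bp downstream of the start and 34 bp from an internal start site. It was enriched 5.64-fold with 28 reads (18.6 to 40.5), and its Myb motif began 8 bp from the summit. Peaks at 1461 and 8120 bp also held the Myb motif and were enriched 3.71-fold each. A peak 2049 bp upstream was enriched 6.75-fold with 28 reads, and one past the 3′ end, 10436 bp from the start, 5.70-fold with 21 reads. The remaining peaks of Nfe2, at 2940, 5999 and 6625 bp, were enriched 3.98-, 3.24- and 3.12-fold. Among the neighbors, the peak at Copz1, which encodes a coatomer subunit, was enriched 9.52-fold and held the Myb motif. The strongest peak nearest to Cbx5, a heterochromatin protein gene, was enriched 7.28-fold. Peaks nearest to Hnrnpa1 and Gpr84 were enriched between 2.45- and 4.44-fold. All 20 peaks had q-values of at most 0.05.

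**Figure D2:**
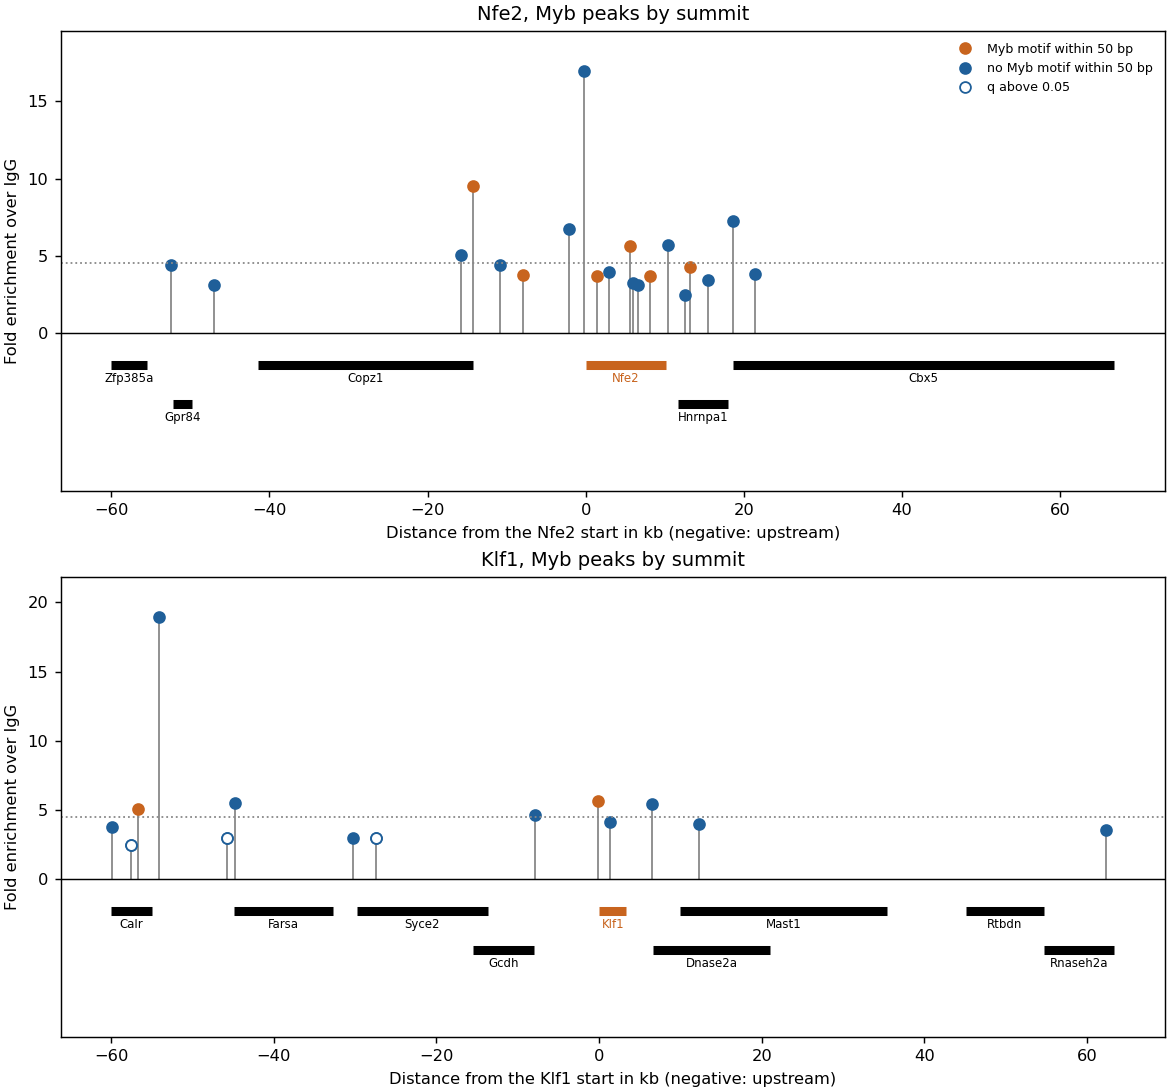
Fold enrichment over IgG of each Myb peak (vertical axis) by the distance of its summit from the Nfe2 start (top) or the Klf1 start (bottom), in kb, with colors, bars and the dotted line (4.51) as in the globin maps. The tallest point of the Nfe2 window is at the Nfe2 promoter (16.99), whereas that of the Klf1 window is at Calr, 54149 bp upstream of Klf1 (18.97).

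The red cell genes outside transcription control differed widely in their peaks. Tfrc, which encodes the transferrin receptor for iron uptake, had 5 peaks of its own. The widest, 3752 bp across, had its summit 160 bp upstream of the start. It had 35 reads (24.4 to 48.7), but its IgG background, 7 reads, was the highest of the 68 peaks, and its enrichment was 3.49-fold. The 4 others lay in the gene between 3326 and 5363 bp from the start and were enriched between 4.56- and 5.64-fold. None of the 8 peaks in the Tfrc window held the Myb motif, and 3 held the GATA motif. Of the peaks nearest to other genes, 1 lay in an intron of Zdhhc19 with an enrichment of 3.99, and the 2 nearest to Tnk2 were enriched 2.35- and 2.86-fold.

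Slc4a1 encodes band 3, the anion exchanger of the red cell membrane. It had 1 peak of its own, in an intron 2379 bp from the gene start and 120 bp from an internal transcript start. This peak was enriched 7.37-fold with 37 reads (26.1 to 51.0) and held a GATA motif 18 bp from the summit and an E-box (CAGATG or CAGCTG). The other 8 peaks of its window were nearest to Ubtf, which encodes an RNA polymerase I factor, to Atxn7l3 or to the mitochondrial carrier gene Slc25a39. They were enriched between 2.97- and 5.72-fold.

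Alas2 encodes the erythroid form of the first enzyme of heme synthesis, and it had the only peak of its window, 2380 bp downstream of its start in an intron, where the annotation of Apex2 overlaps. The enrichment was 2.78-fold with 24 reads (15.4 to 35.7) over an IgG background of 6 reads. The summit had more reads than 5 of the 7 Hba summits and 8 of the 9 Hbb summits, and its fold was lower than most of theirs over the higher background. Alas2 lies on the X chromosome, where 34.7% of 948 coding genes had a peak in the gene or within 60 kb and the median gene had 0.

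**Figure D3:**
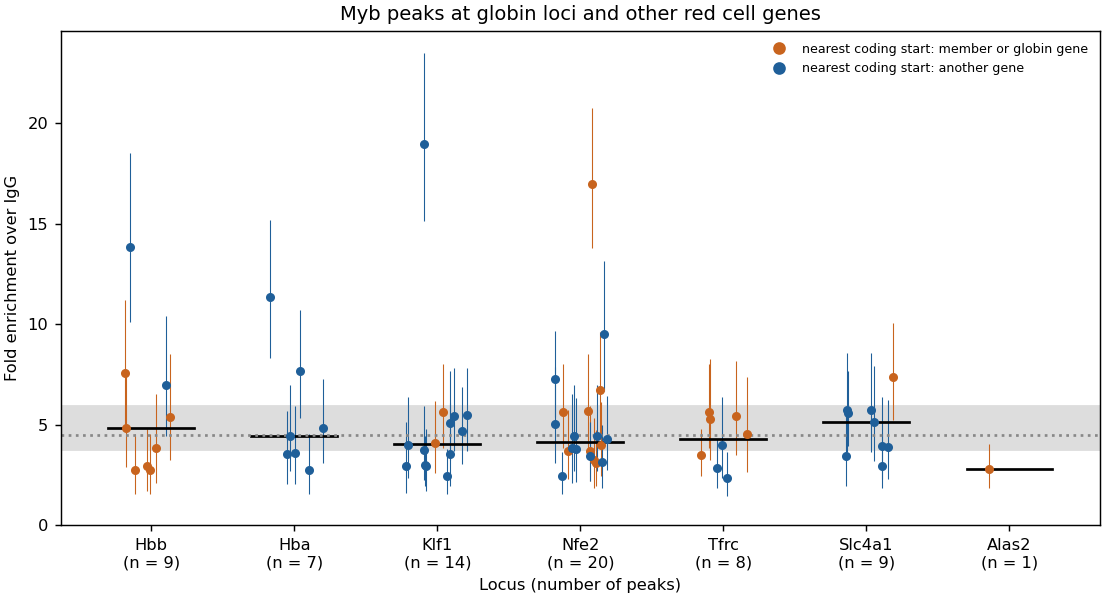
Fold enrichment over IgG (vertical axis) of the 68 Myb peaks by locus. Each point is 1 peak, orange where the nearest coding start is that of a member or other globin gene and blue where it is another gene's, with the fold at the 95% Poisson limits of its reads as bars. Black lines are medians, the grey band holds the middle 50% of all peaks (3.73 to 5.95) and the dotted line is their median (4.51). Most points lie in or near the band, and the points at 13.8, 11.4, 18.97 and 16.99 stand above it.

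The globin loci were then compared with the other red cell loci. The median fold enrichment was 4.63 at the globin loci, with quartiles of 3.38 and 7.12, and 4.04 at the others, with quartiles of 3.46 and 5.50. Over all peaks it was 4.51. The 95% order-statistic interval of the globin median, 2.94 to 7.59, held both other medians. It covers the spread between 16 peaks of 2 loci and takes them as independent, so a difference was not tested. More than the upper quartile of all peaks, 5.95, was reached by 5 of 16 globin peaks and 6 of 52 others. The median reads at the summit were 16 and 19.5, and 18 over all peaks. The median IgG background was 2.02 reads at the globin loci and 2.63 at the others. The lowest background the caller used, 1.46 reads, applied to 5 globin peaks and 1 other peak, so that folds of equal reads were higher there.

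Summits within 3 kb of any annotated start made up 44 of 52 peaks at the other red cell loci (84.6%, exact binomial interval 71.9% to 93.1%) and 9 of 16 at the globin loci (56.3%, 29.9% to 80.2%), against 57.6% of all peaks. These intervals take the peaks as independent, although 20 of the 52 lay in the Nfe2 window and 14 in the Klf1 window. A difference from all peaks was therefore not read from them. Only 19 of the 68 peaks lay within 3 kb of a start of one of the 9 genes. The intervals of the classes overlapped in part, and a difference between the classes was not tested. The median GC content of the 101 bases at the summit was 40.6% at the globin loci, 49.5% at the others and 48.5% over all peaks. A q-value above 0.05 was found for 4 of 16 globin peaks, 4 of 52 others and 7.24% of all peaks. Only 25 of the 68 peaks were nearest to the start of one of the 9 genes or another globin gene, and the other 43 were nearest to a neighbor.

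Per 100 kb of window, there were 5.94 peaks at the globin loci (95% Poisson interval, 3.40 to 9.65) and 7.67 at the others (5.73 to 10.1). The intervals overlapped, and a difference was not tested. Single loci ranged from 15.4 at Nfe2 and 11.3 at Klf1 through 6.64 at Hbb, 6.55 at Slc4a1, 5.56 at Tfrc and 5.23 at Hba to 0.698 at Alas2. In the 500 kb on each side of the window, density was 0.8 at Hbb, where olfactory receptor genes flank the cluster, and 2.2 at Hba. It was 0.5 at Nfe2, 5.3 at Klf1, 4.5 at Tfrc, 2.3 at Slc4a1 and 0.2 at Alas2. Each of the 7 windows was denser than its surroundings, although the Alas2 window held only 1 peak and its surroundings 2. Other coding genes were not compared in this way, so whether the pattern is particular to these loci was not tested.

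All 9 genes had at least 1 peak in the gene or within 60 kb, as did 70.9% of the 21938 coding genes. The median coding gene had 2 peaks, with quartiles of 0 and 6. Nfe2 had more peaks than 99.1% of coding genes and Klf1 more than 96.3%. Hbb-bs and Slc4a1, with 9 peaks each, had more than 87.6%, and Hbb-bt and Tfrc, with 8 each, more than 84.2%. Hba-a1 and Hba-a2 shared the same 7 peaks, more than 79.9% had, and Alas2 with 1 peak was above 29.1%. Hbb-bs and Hbb-bt shared 8 of 9 peaks, so neither pair counts as independent genes. By contrast, 6 of the 9 genes and 39.9% of coding genes had a promoter peak, and the genes without one were Hbb-bs, Hba-a1 and Hba-a2.

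**Figure D4:**
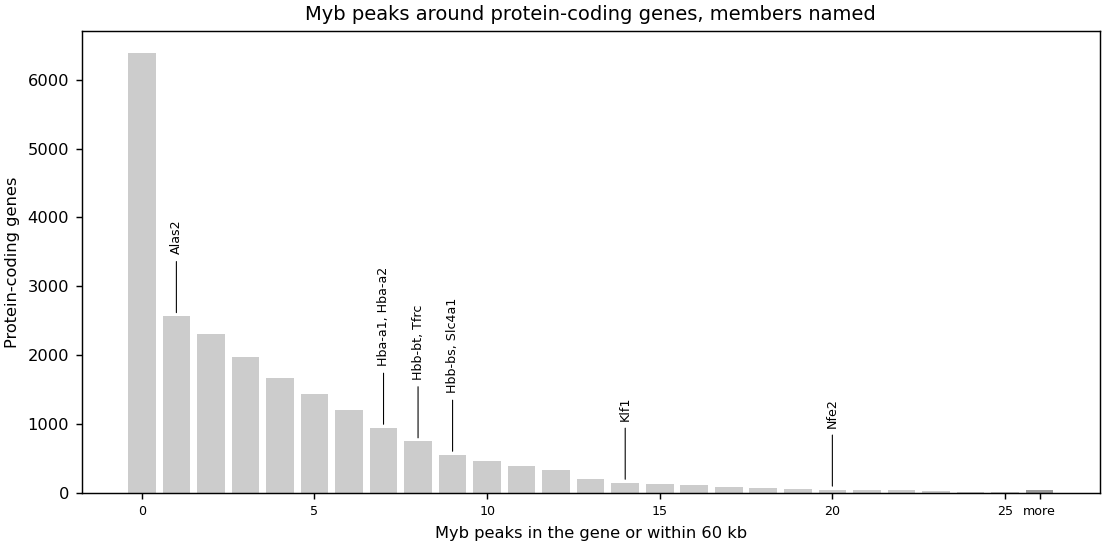
Number of protein-coding genes (vertical axis) by the number of Myb peaks in the gene or within 60 kb (horizontal axis), with the 9 genes named at their number. Alas2 stands next to the genes with none, the globin genes, Tfrc and Slc4a1 lie at 7 to 9 peaks, and Klf1 (14) and Nfe2 (20) lie in the tail.

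The Myb motif was near few of the summits. It lay within 50 bp of 2 of 16 globin summits (12.5%, exact binomial interval 1.55% to 38.3%) and 9 of 52 others (17.3%, 8.23% to 30.3%). Over the 68 peaks this was 11, or 16.2%, against 16.7% of all peaks, so the share was close to the background. The GATA motif lay at 6 of 16 globin summits (37.5%, 15.2% to 64.6%) and 8 of 52 others (15.4%, 6.88% to 28.1%), against 20.1% of all peaks and 26.4% of peaks outside promoters. The interval of the globin share held both background shares. The KLF motif lay at 1 globin summit and 11 others (21.2%, 11.1% to 34.7%), against 11.2% of all peaks. An ETS motif lay at 1 globin summit and 12 others, against 19.8% of all peaks, and an E-box at 3 and 9, against 14.2%. A RUNX motif lay at 2 and 6, against 12.2%. The NFE2 motif lay at 1 globin summit and no other, against 1.93% of all peaks. Some letters serve in more than 1 match, as in CAACTGATAA.

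The wider red cell program was read from 79 further genes in 7 groups by function. A promoter peak was listed at 70 of them (88.6%), against 39.9% of coding genes, and the median fold of the strongest promoter peak was 6.78 against 5.25 over all coding genes with one. Genes can share peaks, and the genes were picked by name with earlier results of these data known. The reference was all coding genes, whatever their activity in these cells. A difference from all coding genes was therefore not tested, and these shares and folds describe the groups only.

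All 16 transcription factor and cofactor genes had a promoter peak. The highest were at E2f2, a cell cycle factor (18.95-fold), at Lyl1, a relative of Tal1 (17.5), and at Foxo3, a forkhead factor (11.5). Their summits lay 2750, 1428 and 1321 bp from the nearest annotated start, near enough to count but not at the start itself. Gata1, the master regulator of the lineage, was enriched 4.47-fold with 13 reads, and its partner Tal1 9.68-fold with 49 reads. In contrast, among 6 further globin genes, only Hbb-y had a promoter peak, and Hbb-bh1, Hbb-bh2, Hba-x, Hbq1a and Hbq1b had none.

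Heme synthesis genes had a promoter peak in 10 of 11 cases, highest at Cpox (11.3, 102 bp from a start), Fech (8.38, 3000 bp) and Uros (8.17, 15 bp). These encode the enzyme that makes protoporphyrinogen, the enzyme that inserts iron and an intermediate enzyme that closes the porphyrin ring. The exception was Alas1, the housekeeping counterpart of Alas2. Iron genes had a promoter peak in 9 of 10 cases. The highest were at the ferritin gene Fth1 (12.4, 105 bp), the second transferrin receptor gene Tfr2 (11.2, 107 bp) and the ferrireductase gene Steap3 (9.64, 124 bp). The mitochondrial iron importer gene Slc25a37 had no peak listed in the gene or within 60 kb.

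All 15 membrane and cytoskeleton genes had a promoter peak. It was highest at the ankyrin gene Ank1 (10.2, 38 bp from a start) and the protein 4.1 gene Epb41 (9.28, 1975 bp). Erythropoietin signaling genes had one in 7 of 8 cases, without the feedback inhibitor gene Socs3. The highest were at the receptor gene Epor (10.5, 34 bp), the stem cell factor receptor gene Kit (8.71, 994 bp) and Stat5b (8.03, 744 bp). Of 13 other red cell genes 12 had a promoter peak, and Xpo7, an exportin gene, had none. Car1, a carbonic anhydrase gene, was highest (11.1, 184 bp). The ubiquitin ligase gene Trim58 (9.57, 1038 bp) and the biliverdin reductase gene Blvrb (9.37, 2585 bp) followed. Among the 9 genes, the strongest promoter peaks of Nfe2 (16.99, 191 bp) and Slc4a1 (7.37, 120 bp) were above 6.78, the median of the listed genes with one. Those of Klf1 (5.64, 145 bp), Tfrc (5.64, 949 bp), Hbb-bt (5.40, 1854 bp) and Alas2 (2.78, 2296 bp) were below it. Distances are to the nearest annotated start, internal ones included. The Slc4a1, Tfrc and Alas2 summits lay in introns, and that of Hbb-bt lay past the 3′ end of the gene. The Tfrc peak 160 bp from the gene start was enriched 3.49-fold.

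**Figure D5:**
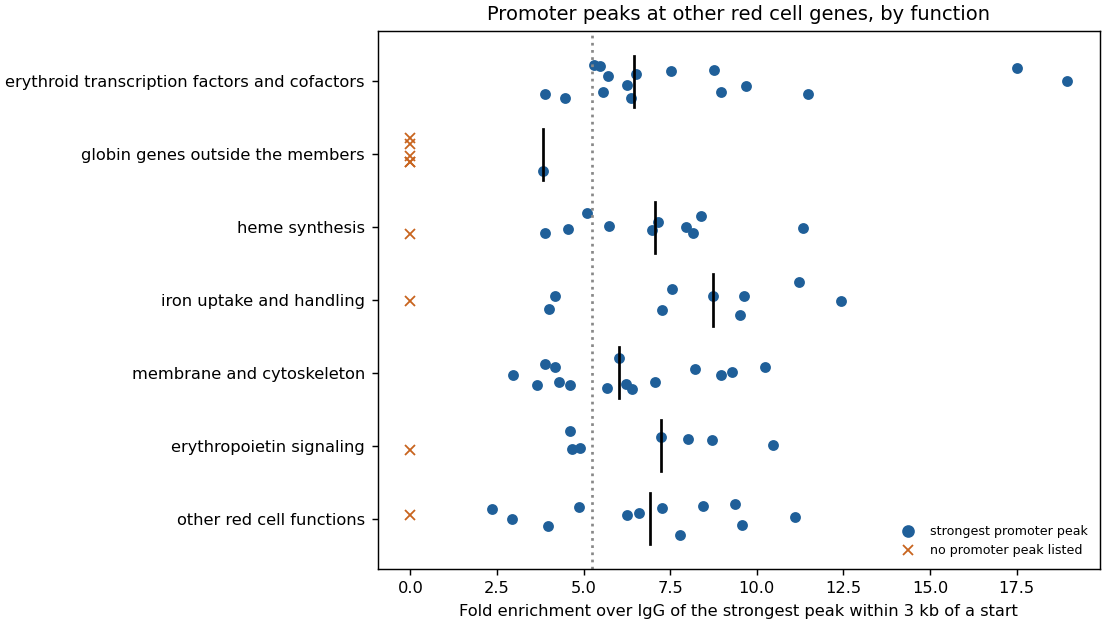
Fold enrichment over IgG of the strongest Myb peak within 3 kb of a start (horizontal axis) for 79 red cell genes in 7 functional groups (rows). Each blue point is 1 gene, crosses at 0 are genes with no promoter peak listed, black lines are medians of the genes with one, and the dotted line is the median of all coding genes with one (5.25). Crosses gather in the globin row, and 4 other groups have 1 each.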

How the data were processed

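ChIP-Seq was performed by the authors on WT Lin– bone marrow cells (purity above 80% per the labels), with 1 Myb and 1 IgG library sequenced as 75-base single-end reads. Per the submitters' processing notes, reads were trimmed with cutadapt 1.15, aligned to mm10 with BWA 0.7.13 and deduplicated with Picard, and narrow peaks were called with MACS2 2.1.1.20160309. The authors also discarded reads of low mapping quality and blacklisted regions and kept peaks shared by pseudo-replicates. The deposited list gives, for each peak, a fold enrichment over IgG (a ratio), −log10 p and q-values and a score.

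Reads at each summit were recovered from fold and p-value, as MACS2 defines fold as pileup plus 1 over background plus 1. The pileup was taken as a fitted 0.769 times the Myb reads, and the background was left as the caller used it. With this scale 100% of rows gave whole reads within 0.02, with a median of 18. More than 1 solution was found for 4.55% of rows, 2 of the 68 among them. Library totals are not given in the list, so depth per library is unknown. Intervals are exact Poisson or Clopper-Pearson at 95%, and that of the globin median is from order statistics.

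Genes were from GENCODE vM21, sequences from the GRCm38.p6 reference and promoters from its RefSeq table. Named genes were the 9 members with every peak, the gene nearest to each peak and, in each functional group, the 3 highest promoter folds and every gene without a promoter peak; Gata1 and Tal1 were added after their values were seen. Of 80 listed genes 79 matched by symbol, and Ahsp was not analysed here. Some genes that the rule would name are not reported here. Members and gene lists were chosen with earlier results of these data known. Alternatives were other q-value limits, windows of 30 and 100 kb and other motif definitions. Python 3.11.15 with numpy 2.4.6, pandas 2.3.3, scipy 1.17.1 and matplotlib 3.10.9 was used, and the read recovery and repeat counts were tested on simulated data.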

Additional observations from a re-analysis of the deposited data

How the results depend on the processing

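Of 48 alternative values, 39 stayed within 1.5 times the reported count or within the reported 95% interval. At a −log10 q-value of at least 5, 7 globin and 21 other peaks remained in the count, densities fell to 2.60 and 3.10 per 100 kb, and the median fold at the other loci was 5.64, since weak peaks are removed. Alas2 then had no peak, leaving 6 loci with one. With 30 kb in place of 60 kb, 8 globin and 33 other peaks were counted, and the strongest Hbb and Hba peaks were among those no longer counted. The Myb motif share was 7.35% of member peaks within 25 bp (8.68% of all peaks) and 50% for AACNG (54.3% of all peaks). With a limit of 1 kb, 61 of 79 red cell genes had a promoter peak (35.8% of coding genes), and 57 at a −log10 q-value of at least 5 (24.3%). No paired analysis was possible because each antibody had 1 library. Without replicates, variation between animals or immunoprecipitations was not measured, and the lowest summit of the 68 had 10 reads.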
